A study of Homo sapiens with 6 samples.

Results

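Collagen genes were followed here across 6 microarrays of A375 human melanoma cells. The genes were taken by symbol: every probe set that the array annotation assigns to 1 gene was kept where that symbol reads COL, a number, A and a number, and antisense and pseudogene symbols were left out. This gave 43 genes of the 19775 with a single-symbol probe set, and each gene was read from its probe set with the highest mean log2 intensity over the 6 arrays. Of these genes, 22 had a mean of at least 5 log2 units and were tested, and 21 lay below that level. The tested genes just inside this limit were COL26A1 with a mean of 5.29 and COL4A5 with 5.31, and those just outside were COL6A3 with 4.99 and COL20A1 with 4.97. The other genes below it were COL1A2, COL2A1, COL3A1, COL4A3, COL4A4, COL4A6, COL6A5, COL6A6, COL8A1, COL8A2, COL10A1, COL11A1, COL14A1, COL15A1, COL19A1, COL22A1, COL24A1, COL25A1 and COL28A1. COL17A1, a collagen of hemidesmosomes, was not analysed here.

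A375 cells carry the BRAF mutation that vemurafenib, a BRAF inhibitor, is designed against. All 6 arrays come from A375 cells in which the translation initiation factor eIF4B had been knocked out by CRISPR and a gene then put back by lentivirus. In the KO/LacZ cells, called the knockout line here, that gene was LacZ, a control. In the KO/eIF4B cells, the rescued line, it was wild-type eIF4B. Each line was given vehicle (DMSO), or vemurafenib at 10 µM during 6 h or during 18 h, and each combination has 1 array. No array of unedited A375 cells was used here. The labels do not say whether the lines are single clones, whether the cultures were separate, or how long the vehicle was applied. The p-values therefore measure only the spread between these arrays.

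Collagens are matrix proteins built from 3 chains wound into a triple helix, each chain from its own gene. Fibrillar collagens (types I, II, III, V, XI and their relatives) form the fibres of skin, bone and cartilage. FACIT collagens sit on the surface of those fibres, type IV chains form the mesh of basement membranes, and type VI forms beaded filaments. Other members span the cell membrane or anchor the epidermis. Chains are hydroxylated and folded in the endoplasmic reticulum, leave it in enlarged carriers, are trimmed and crosslinked outside the cell, and are bound there by integrins and discoidin domain receptors.

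Promoter sequences of COL13A1, COL21A1, COL9A2 and COL4A5 are shown first. Among the tested collagen genes, read from their chosen probe sets, they had the largest differences from vehicle at 18 h. The stretch that COL4A1 and COL4A2 share is shown because both fell. COL1A1, which rose more than COL4A5 in a probe set that was not the chosen one, was not in the promoter table. The sequences are the 250 bases before the start site in RefSeq's GRCh38.p14 annotation, read 5′ to 3′ on the gene's own strand. For the adjoining COL4A1 and COL4A2, which start head to head, the whole stretch between the start sites is shown on the plus strand. Capitals mark matches to any of 8 motifs searched on both strands. The letters searched were TGANTCA as the motif of AP-1 factors, CCGGAA as that of ETS factors, GGAATG as that of TEAD factors and ACAAAG as that of SOX factors. The E-box was searched as CACGTG, the motif known by the name of CCAAT box by those letters, the GC box as GGGCGG and the TATA box as TATAAA.

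COL13A1, chr10:69801656-69801905, plus strand, which fell: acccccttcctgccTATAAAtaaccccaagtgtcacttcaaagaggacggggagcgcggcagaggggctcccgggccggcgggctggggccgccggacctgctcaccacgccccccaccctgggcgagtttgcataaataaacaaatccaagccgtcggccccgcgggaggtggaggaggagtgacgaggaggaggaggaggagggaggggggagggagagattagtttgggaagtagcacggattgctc
COL21A1, chr6:56394129-56394378, minus strand, higher after 18 h, at the most upstream of its listed starts: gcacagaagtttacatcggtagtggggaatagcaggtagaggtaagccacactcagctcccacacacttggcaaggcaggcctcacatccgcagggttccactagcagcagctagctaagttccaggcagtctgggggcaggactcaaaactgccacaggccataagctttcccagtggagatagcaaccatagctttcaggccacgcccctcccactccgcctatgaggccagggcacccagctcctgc
COL9A2, chr1:40317287-40317536, minus strand, higher after 18 h: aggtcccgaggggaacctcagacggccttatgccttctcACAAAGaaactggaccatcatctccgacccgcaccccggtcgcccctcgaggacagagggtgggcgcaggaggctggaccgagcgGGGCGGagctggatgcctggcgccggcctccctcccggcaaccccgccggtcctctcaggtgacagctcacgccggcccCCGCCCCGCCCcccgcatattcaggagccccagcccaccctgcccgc
COL4A5, chrX:108439588-108439837, plus strand, higher after 18 h and higher in the knockout line: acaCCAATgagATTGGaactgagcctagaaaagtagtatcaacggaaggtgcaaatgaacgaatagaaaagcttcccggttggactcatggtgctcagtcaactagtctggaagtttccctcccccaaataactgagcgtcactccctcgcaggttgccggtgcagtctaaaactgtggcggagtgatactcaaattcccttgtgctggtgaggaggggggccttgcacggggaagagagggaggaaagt
COL4A2 and COL4A1, chr13:110307158-110307283, plus strand, the 126 bases between the start sites of a pair that fell: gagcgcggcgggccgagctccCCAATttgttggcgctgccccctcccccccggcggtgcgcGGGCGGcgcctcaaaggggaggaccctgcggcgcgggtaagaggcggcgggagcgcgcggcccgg

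The COL13A1 stretch held a TATA box match, that of COL9A2 a SOX match and GC box matches, and that of COL4A5 a match to the CCAAT box on each strand. The COL21A1 stretch held no match to the 8 motifs. Before its other listed starts lay a GC box match (chr6:56247581-56247830) and a SOX match (chr6:56091663-56091912), and which start is used was not tested. The stretch between COL4A2 and COL4A1 was 80.2% G and C, against a median of 58% over the upstream 250 bases of all start sites, and held 1 CCAAT box and 1 GC box match. Of the 43 collagen genes, 31 were in the promoter table, with 43 start sites between them. A GC box match lay upstream of 24 of these (55.8%), against 42.6% of 35116 start sites in all. AP-1 matches lay upstream of 1 (2.33%), against 6.57% of all, and ETS matches upstream of 0, against 14.5% of all. E-box matches lay upstream of 0 (against 6.34%), and TEAD matches upstream of 6.98% (against 11.9%). The shares were 11.6% for SOX (against 13.7%), 25.6% for the CCAAT box (against 32%) and 16.3% for the TATA box (against 10.7%). These matches describe the letters alone and say nothing of which factor was bound.

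The arrays were alike in their signs of quality: the 3′ and 5′ control probe sets of GAPDH differed by -0.01 to 0.04 log2 units and those of ACTB by 0.13 to 0.18. EIF4B checked the labels, at 8.40 to 8.53 in knockout cells and 10.07 to 10.28 in rescued cells, a 3.20-fold difference (adjusted p = 0.0056), and its probe set still gave a signal in the knockout. Whether it covers the edited stretch is not given in the sources used here. Of 10 melanoma and pigment cell markers, SOX10 was at 9.86 to 10.57 on every array, whereas MLANA and TYRP1 were below 5. Of the 8 tested, 2 were higher at 18 h, MITF by 1.63 and S100A1 by 0.28, and 2 were lower, CSPG4 (-0.74) and NES (-0.56). Of all genes tested, 28.1% were higher at 18 h and 23.3% lower. At 6 h, 1 of the 8 was higher, MITF by 1.01, and 2 were lower, SOX10 (-0.63) and CSPG4 (-0.55). Over all genes tested, 7.34% were higher at 6 h and 8.82% lower. Some markers of other cell types also moved with the drug. The summed intensity of 10 fibroblast markers, collagens left out, was 570 to 574 with vehicle, 747 to 811 after 6 h and 1448 to 1692 after 18 h. Of the 7 tested members, 5 (LUM, DCN, ACTA2, PDGFRB and MFAP5) were higher after 18 h, against 28.1% of all genes tested. THY1 (-0.09) and FBLN1 (-0.08) were not called, and PDGFRA, FAP and POSTN stayed below 5. The summed intensity of 6 epithelial markers was 594 to 750, 856 to 955 and 1343 to 1909 in the same order, with EPCAM, CDH1 and KRT19 below 5. Of the 3 tested, KRT14 rose by 1.45 at 18 h, and KRT5 (-0.01) and CLDN4 (0.04) were not called. The summed intensity of 5 blood cell markers was 289 to 331, 280 to 306 and 250 to 263, with LYZ the only one of 3 tested that was called at 18 h (-0.86). Their part in the collagen results was not tested.

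After 18 h of vemurafenib, collagen genes moved both ways. COL21A1, COL4A5, COL9A2, COL5A1, COL9A3, COL16A1, COL5A2 and COL12A1 rose, and COL13A1, COL4A1, COL4A2 and COL27A1 fell, by 1.26-fold (COL12A1) to at least 13.2-fold (COL13A1). A fold against a group whose arrays all lay below 5 log2 units is given as a lower bound, counted against that level. A gene counts as called here where limma's adjusted p, over 13506 genes and with both lines in the model, was below 0.05. Of 22 tested collagen genes 8 were higher (36.4%, against 28.1% of all genes tested) and 4 were lower (18.2%, against 23.3%), so that 54.5% were called, close to the 51.4% of all genes. COL21A1 and COL4A5 reached the limit for testing only through their 18 h arrays, the group in which they are high. Without them, 6 of 20 were higher (30%) and 4 lower (20%). With no limit on signal, 9 of 43 collagen genes were higher (20.9%, against 18.7% of 19775 genes) and 6 lower (14%, against 15.5%), the added genes being COL11A1, higher, and COL14A1 and COL15A1, lower. The median change of the collagen genes was 0.03, against 0.01 for all genes. The split depends on scaling: with each array centred on the median of its tested genes, which moves all 18 h differences by -0.10, 7 collagen genes were higher and 8 lower, and the share of higher calls among all called genes went from 54.7% to 41.8%. The genes then added as lower were COL6A1, COL6A2, COL23A1 and COL26A1, and COL12A1 was no longer called. In RNA from whole cultures, fewer cells of a kind and less RNA per cell cannot be told apart.

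**Figure D1:**
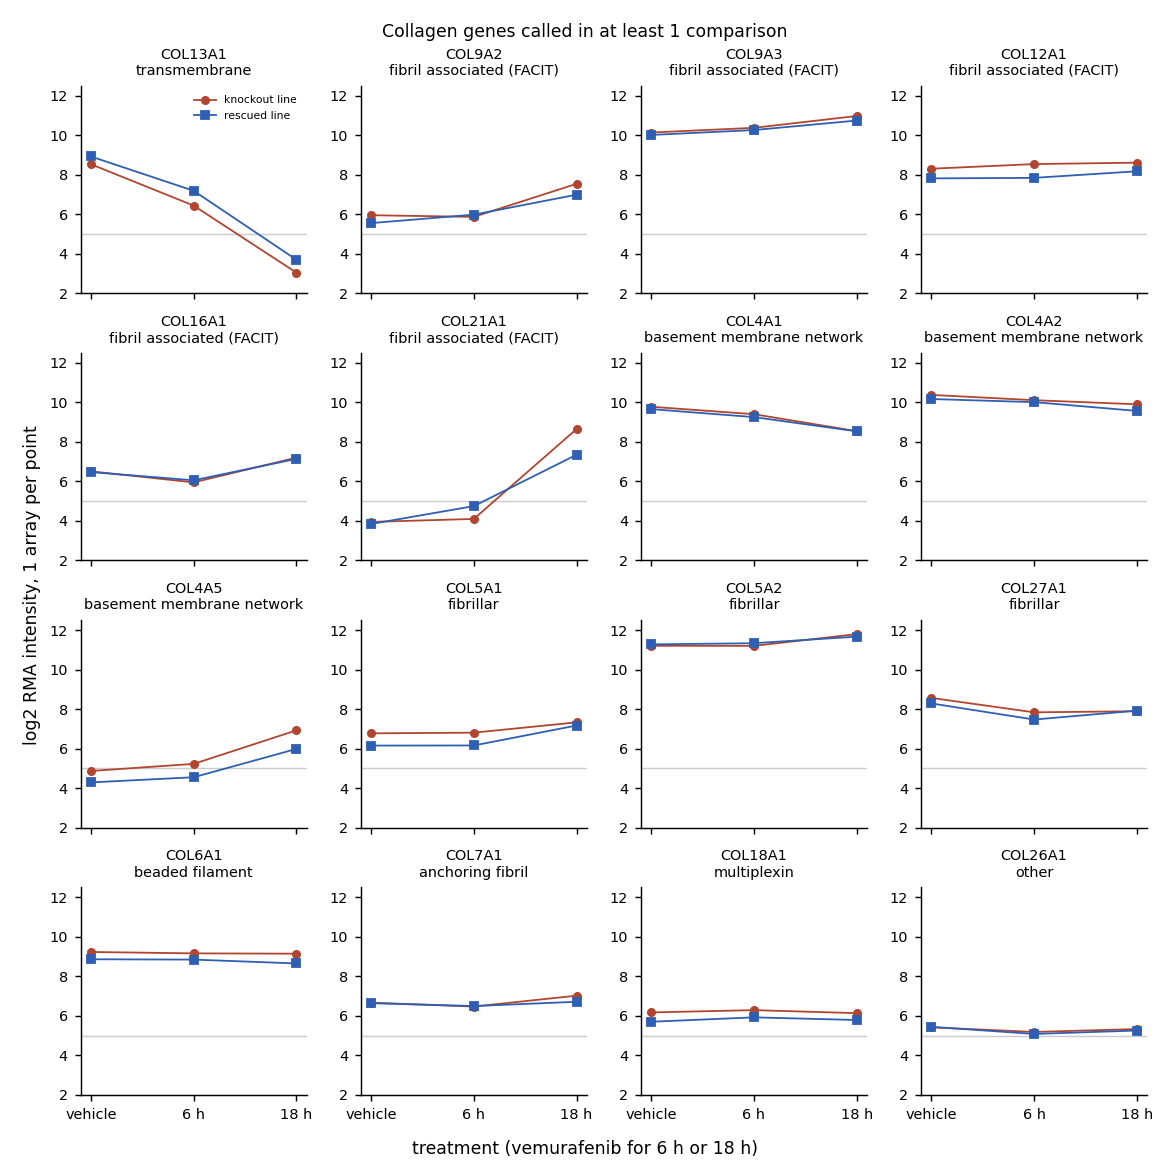
Log2 RMA intensity (vertical axis) of the 16 collagen genes called in at least 1 comparison, by treatment (horizontal axis), with 1 array per point, circles for the knockout line and squares for the rescued line. The grey line marks 5 log2 units. COL13A1 goes from above 8 to below 4 in both lines, and COL21A1 from below 4 to above 7.

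The largest fall was in COL13A1, a transmembrane collagen found at sites where cells attach to matrix. Its level was 8.53, 6.43 and 3.04 log2 units in knockout cells with vehicle, 6 h and 18 h, and 8.92, 7.18 and 3.69 in rescued cells. Both 6 h arrays lay below both vehicle arrays and both 18 h arrays below both 6 h arrays, in the range of genes left untested for low signal. The difference from vehicle was -1.92 ± 0.10 (SE) at 6 h, a 3.77-fold fall with an adjusted p of 0.00091. At 18 h it was -5.36 ± 0.10 (adjusted p = 8.1e-05), a fall of at least 13.2-fold, and from 6 h to 18 h the fall was at least 3.50-fold (adjusted p = 0.0016). The size depends on the probe set: the other probe sets of COL13A1, 211809_x_at and 208535_x_at, fell by 0.74 and 0.59 log2 units at 18 h, and the mean over all 3 fell by 2.23 at 18 h and 0.97 at 6 h. With 16 added to each intensity before the logarithm the 18 h difference was -4.05. COL23A1, the other transmembrane collagen tested, differed by -0.16 ± 0.08 at 18 h and was not called.

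The FACIT collagens held most of the rises. Of 10 such genes, 6 were tested and 5 of these rose at 18 h, against 28.1% of all genes, with a median change of 0.73 over the 6, beside 0.01 for all genes. Without COL21A1, which was tested because of its 18 h level, 4 of 5 rose and the median was 0.68. The 4 FACIT genes below the limit were COL14A1, COL19A1, COL20A1 and COL22A1. In the limma fit with no limit on signal, COL14A1 was lower by 0.28 (adjusted p = 0.049) and the others were not called. COL21A1, a FACIT collagen reported in blood vessel walls, was at 3.95, 4.10 and 8.65 in the knockout line with vehicle, 6 h and 18 h. In the rescued line it was at 3.85, 4.75 and 7.35. The 18 h arrays stood far above all others, and the remaining arrays were all below 5. Its difference from vehicle was 4.10 ± 0.44 (SE), at least 8.01-fold. Since the limit on signal selects this gene for its rise, the test to read is the fit over all 19775 genes with no limit, in which the adjusted p was 0.0019. With 16 added to each intensity it was 3.15. At 6 h it was 0.53 ± 0.44 and was not called (adjusted p = 0.46).

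Type IX collagen, a FACIT collagen of cartilage that coats type II fibrils, is built from the chains of COL9A1, COL9A2 and COL9A3. COL9A2 was at 5.95, 5.86 and 7.54 in knockout cells and 5.55, 5.98 and 6.99 in rescued cells, in the order vehicle, 6 h and 18 h. Vehicle and 6 h arrays overlapped, and both 18 h arrays were higher. The 18 h difference was 1.51 ± 0.16 (adjusted p = 0.0014), and 0.84 when all probe sets of the gene were averaged. COL9A3 was at 10.13, 10.37 and 10.97 in knockout cells and 10.01, 10.26 and 10.74 in rescued cells, an ordered rise in each. Its difference was 0.24 ± 0.06 at 6 h, not called (adjusted p = 0.063), and 0.78 ± 0.06 at 18 h (adjusted p = 0.00072). COL9A1, the chain that completes the type IX molecule, differed by 0.04 ± 0.08 at 18 h and was not called.

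COL16A1, a FACIT collagen of skin and cartilage, went down and then up. Its level was 6.51, 5.95 and 7.20 in knockout cells and 6.47, 6.06 and 7.14 in rescued cells. The 6 h arrays were the lowest and the 18 h arrays the highest, with no overlap between treatments. It fell by 0.49 ± 0.07 (SE) at 6 h (adjusted p = 0.014), was 0.68 ± 0.07 above vehicle at 18 h (adjusted p = 0.0013), and rose 2.25-fold between 6 h and 18 h. COL12A1, a FACIT collagen that binds type I fibrils in tendon and ligament, was at 8.30, 8.54 and 8.61 in knockout cells and 7.81, 7.84 and 8.17 in rescued cells. The 18 h array was the highest of each line, and the lines stood apart. COL12A1 was 0.33 ± 0.08 (SE) above vehicle at 18 h (adjusted p = 0.023). That difference was 0.10 and not called when all probe sets were averaged, and 0.23 (adjusted p = 0.10) after centring. It also lost its call without the knockout vehicle array, the rescued vehicle array or the rescued 18 h array.

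The basement membrane chains split. COL4A1 and COL4A2, which together form the widespread type IV molecule, fell, whereas COL4A5, a chain of the specialised type IV networks of kidney and other tissues that is altered in Alport syndrome, rose. COL4A1 was at 9.78, 9.40 and 8.54 in knockout cells and 9.66, 9.25 and 8.53 in rescued cells. Its levels stepped down at each time with no overlap between treatments. The difference was -0.39 ± 0.07 (SE) at 6 h (adjusted p = 0.022) and -1.18 ± 0.07 at 18 h, a 2.27-fold fall (adjusted p = 0.00033). COL4A2 was at 10.38, 10.11 and 9.90 in knockout cells and 10.17, 10.01 and 9.57 in rescued cells. Within each line the 18 h array was the lowest. It differed by -0.21 ± 0.08 at 6 h, not called, and by -0.54 ± 0.08 at 18 h (adjusted p = 0.0035). Both probe sets of each gene were lower at 18 h.

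COL4A5 was at 4.87, 5.23 and 6.93 in knockout cells and 4.29, 4.55 and 5.99 in rescued cells. The 18 h arrays were above all others in both lines. The mean of the other 4 arrays was 4.74, so that COL4A5 too was tested because of its 18 h level. Its 18 h difference was 1.88 ± 0.10 (SE) in the fit with the limit on signal, at least 2.75-fold. In the fit with no limit the adjusted p was 0.00049. The 18 h difference was 1.38 with 16 added to each intensity, and the 6 h difference of 0.31 ± 0.10 was not called. The other probe set of COL4A5, 234387_at, had a mean of 3.73 and was not tested. It differed from vehicle at 18 h by -0.21 in knockout cells and -0.11 in rescued cells. COL4A6, whose start site lies 379 bases from that of COL4A5 on the other strand, was at 2.76 to 3.37 on the 6 arrays and was not tested. COL4A3 and COL4A4, which with COL4A5 form the network of the kidney filter, also lay below 5 on all arrays.

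Among the fibrillar collagens, 6 of 11 genes were tested. At 18 h COL5A1 and COL5A2, chains of the type V collagen that sets the width of type I fibrils, rose, and COL27A1, a fibrillar collagen of cartilage, fell. COL5A1 was at 6.77, 6.81 and 7.33 in knockout cells and 6.16, 6.16 and 7.17 in rescued cells. Vehicle and 6 h levels were alike within each line and the 18 h arrays were higher. The difference was 0.79 ± 0.13 (SE, adjusted p = 0.0061) at 18 h. COL5A2 was at 11.20, 11.20 and 11.80 in knockout cells and 11.28, 11.34 and 11.67 in rescued cells. The 18 h arrays were again the highest. It rose by 0.49 ± 0.08 at 18 h (adjusted p = 0.0061). COL5A3, the remaining type V chain, differed by 0.16 ± 0.12 and was not called.

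COL27A1 was at 8.57, 7.84 and 7.89 in knockout cells and 8.29, 7.47 and 7.92 in rescued cells. Both vehicle arrays were above all drug arrays. It fell by 0.77 ± 0.11 (SE) at 6 h (adjusted p = 0.013), by 0.52 ± 0.11 at 18 h (adjusted p = 0.012), and all 5 of its probe sets were lower at 18 h. The 18 h call was lost without the knockout vehicle array (adjusted p = 0.074), and the difference was -0.34 without the knockout 18 h array. Averaged over its probe sets, the 6 h difference was -0.46.

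COL1A1, the main chain of type I collagen, gave different readings by probe set. The probe set chosen by the rule, 217430_x_at, had a mean of 7.95 with a span of 0.13 over the 6 arrays and differed by 0.02 ± 0.06 (SE) at 18 h, not called. The probe set 1556499_s_at was at 4.90, 5.35 and 7.34 in knockout cells and 4.20, 4.80 and 7.12 in rescued cells. Its 18 h arrays were far above the others, with a difference from vehicle of 2.68 ± 0.12 in a fit over all 29345 probe sets with a mean of at least 5. This probe set reached that limit, with a mean of 5.62, only through its 18 h arrays. The limit therefore selects it for its rise, and no fit of single probe sets without the limit was run. The remaining 3 probe sets of COL1A1 had means below 5. COL1A2, the partner chain of type I collagen, was at 4.52 to 4.94, and COL3A1, the type III chain, at 3.19 to 3.57, and neither was tested.

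**Figure D2:**
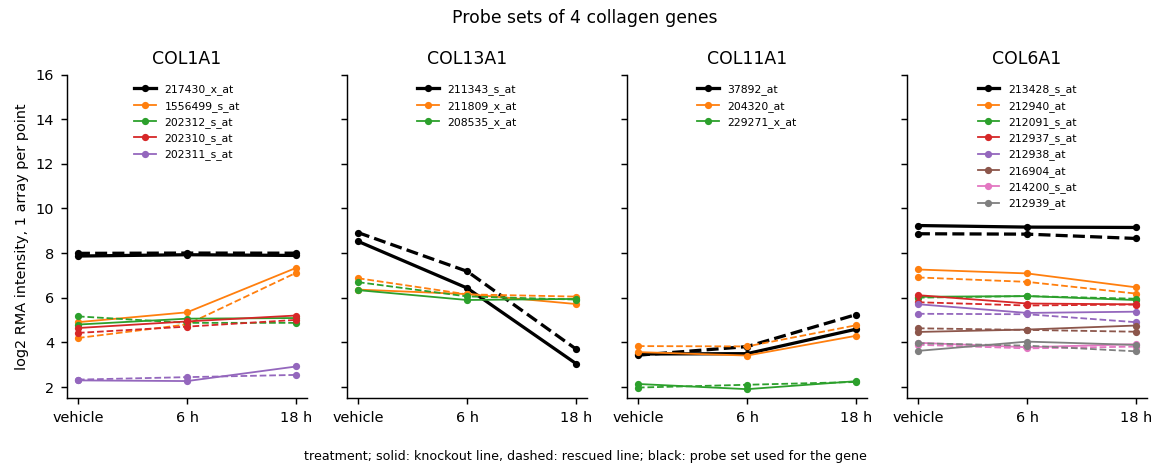
Log2 RMA intensity (vertical axis) of every probe set of COL1A1, COL13A1, COL11A1 and COL6A1 by treatment (horizontal axis), 1 array per point, solid lines for the knockout line, dashed lines for the rescued line and black for the probe set used for the gene. For COL1A1 the black lines span 0.13, while 1556499_s_at reaches 7.34 and 7.12 at 18 h.

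The same comparison over single probe sets included 112 probe sets of the collagen genes, 47 of them with a mean of at least 5. Among these, 1556499_s_at of COL1A1 and the chosen probe sets of COL21A1 and COL4A5 reached that mean only through their 18 h arrays. At 18 h, 16 of the 47 were higher and 13 lower, against 24.3% and 23.0% of all probe sets tested. At 6 h, 1 was higher and 8 were lower, against 5.50% and 7.73%. Between 6 h and 18 h, 16 were higher and 7 lower, against 15.6% and 13.7%, and between the lines 6 were higher in the knockout and 1 lower, against 0.900% and 0.446%. COL6A1, a type VI chain, was not called from its chosen probe set (-0.15 ± 0.07 at 18 h), but its probe set 212940_at fell by 0.76 (adjusted p = 0.00078). COL11A2 was flat in its chosen probe set, and 213870_at rose by 0.48 (adjusted p = 0.025).

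At 6 h the collagen genes called were all lower. COL13A1, COL27A1, COL16A1, COL4A1 and COL26A1 fell, 5 of 22 (22.7%, against 8.82% of all genes tested called lower). No collagen gene was called higher, 0 of 22, against 7.34% of all genes, and 16.2% of all genes were called in either direction. COL26A1, a small collagen described in testis and ovary, fell by 0.30 ± 0.06 (SE, adjusted p = 0.039). The median change of the collagen genes was 0.00, against 0.03 for all genes. The call for COL13A1 held whichever array was left out. COL4A1 and COL26A1 lost theirs without any 1 of the 4 vehicle and 6 h arrays, and COL16A1 and COL27A1 without any of 3 of them, with 1 residual degree of freedom in each such fit. Averaged over its probe sets COL26A1 differed by -0.15 and was not called, and it was not called after centring. With all arrays, its call held in 1 of 8 other settings.

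**Figure D3:**
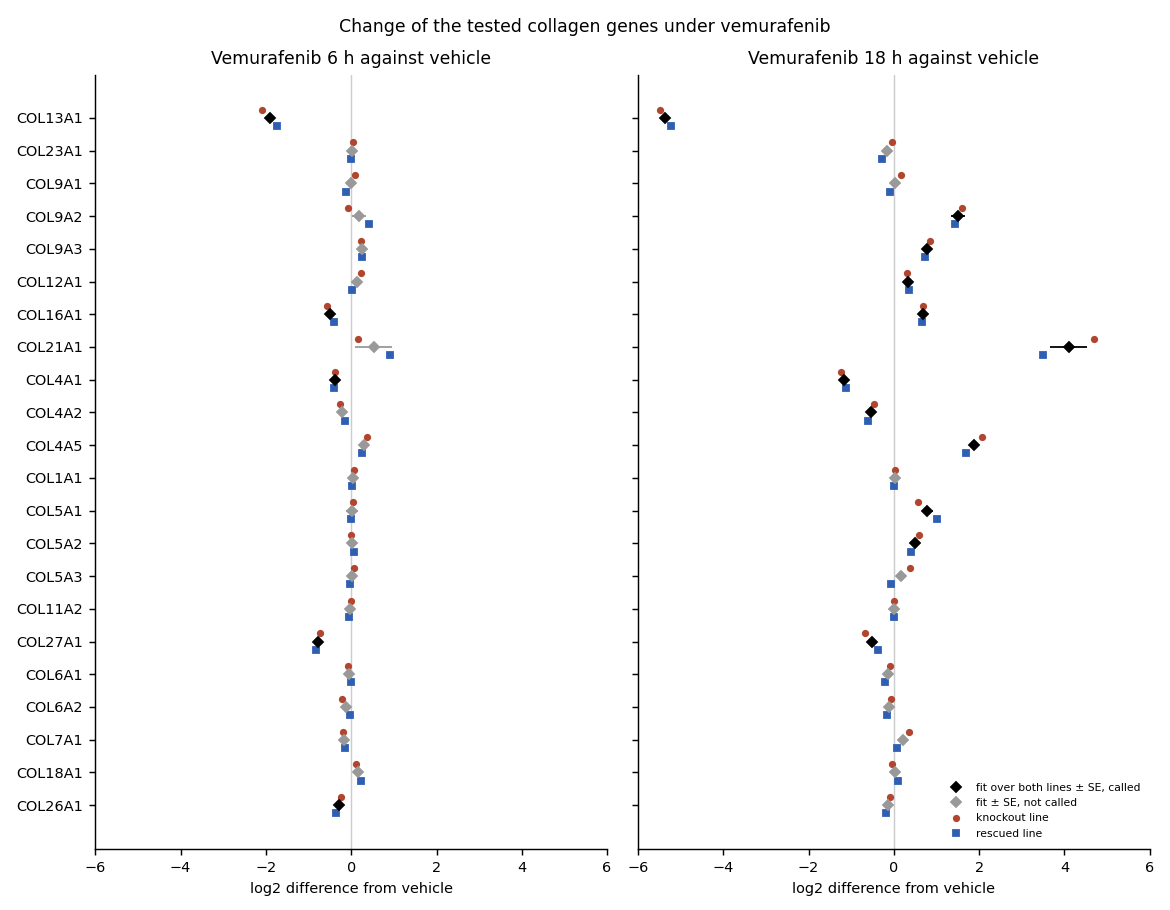
Log2 difference from vehicle (horizontal axes) of the 22 tested collagen genes at 6 h and 18 h, with circles for the knockout line, squares for the rescued line and diamonds with SE bars for the fit over both, black where called. COL13A1 and COL4A1 lie below 0 at both times and COL16A1 changes side.

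Between 6 h and 18 h, 8 of 22 collagen genes rose (36.4%, against 19.0% of all genes tested) and 3 fell (13.6%, against 14.9%), with 34.0% of all genes called. The 6 h and 18 h comparisons use the same vehicle arrays, and this one shares its arrays with both. Without COL21A1 and COL4A5, 6 of 20 rose (30%) and 3 fell (15%). With no limit on signal 8 of 43 rose (18.6%, against 10.9% of all genes) and 2 fell (4.65%, against 7.88%). In that fit COL21A1 was at least 8.01-fold higher (adjusted p = 0.0083) and COL4A5 was higher by 1.57 (adjusted p = 0.0039). In the fit with the limit on signal, COL9A2 rose by 1.34 ± 0.16 (SE, adjusted p = 0.0054). COL7A1, the collagen of the anchoring fibrils that fix the epidermis to the dermis, was at 6.67, 6.47 and 7.02 in knockout cells and 6.64, 6.50 and 6.71 in rescued cells. The 6 h array was the lowest of each line and the 18 h array the highest. It rose by 0.38 ± 0.10 (adjusted p = 0.036) between these times, and neither of its differences from vehicle was called. The COL7A1 and COL4A2 calls were each lost in 5 of the 6 fits that leave out 1 array. COL5A1 lost its call without the rescued 6 h array, and COL5A2 without either the knockout 6 h or the knockout 18 h array. After centring, 8 genes rose and 5 fell, and the share of higher calls over all genes went from 56.0% to 37.3%.

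Between the lines 5 collagen genes were called, and none of these calls held when any 1 array was left out. Over the 3 treatments, COL4A5, COL12A1, COL18A1 and COL6A1 were higher in the knockout line, 4 of 22 (18.2%, against 1.44% of all genes tested). COL13A1 was lower, 1 of 22 (4.55%, against 1.06%), and 2.50% of all genes were called in either direction. COL4A5 reached the limit for testing only through its knockout arrays, the group in which it is higher. In the fit with no limit on signal, none of the collagen genes was called between the lines. After centring the collagen counts were again 4 and 1, and the share of higher calls over all genes went from 57.6% to 45.6%. The median difference was 0.15 for the collagen genes and 0.00 for all genes. Without a test, 10 of 22 collagen genes were higher in the knockout line in every treatment (45.5%, against 25.9% of all genes), and COL1A1 and COL13A1 were lower in every treatment (9.09%, against 21.2%).

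COL4A5 was higher in the knockout line by 0.58 with vehicle, 0.68 at 6 h and 0.94 at 18 h. The sign was the same in all 3 pairs of arrays, and the fitted difference was 0.73 ± 0.08 (SE), 1.66-fold (limma adjusted p = 0.032 with the limit on signal). The mean of its rescued arrays was 4.94, below the limit for testing, and that of its knockout arrays 5.68. Since the limit selects COL4A5 for this difference, the test to read is the fit with no limit, in which it was not called. COL12A1 was higher by 0.49, 0.70 and 0.44, every knockout array above every rescued array. Its fitted difference was 0.54 ± 0.07 (adjusted p = 0.037), and 0.31 averaged over its probe sets. COL13A1 was lower by 0.39, 0.75 and 0.65, with a fitted difference of -0.60 ± 0.08 (adjusted p = 0.041). It was -0.35 averaged over its probe sets and -0.43 (adjusted p = 0.051, not called) with 16 added to each intensity.

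COL18A1, a multiplexin of basement membranes whose end fragment is endostatin, was at 6.18, 6.29 and 6.14 in knockout cells and 5.70, 5.93 and 5.79 in rescued cells. The lines did not overlap, and differed by 0.39 ± 0.05 (SE, adjusted p = 0.040). COL6A1 was at 9.23, 9.16 and 9.15 in knockout cells and 8.87, 8.85 and 8.65 in rescued cells, again with no overlap. It differed by 0.39 ± 0.06 (adjusted p = 0.046), and by 0.17, not called, when all 8 of its probe sets were averaged. COL5A1 was higher by 0.62, 0.65 and 0.16 in the 3 pairs and was not called (adjusted p = 0.094). In the limma fit over single probe sets, however, its probe set 212488_at was higher in the knockout line by 0.46 ± 0.06 (adjusted p = 0.041). The probe set chosen for COL6A1 was not called in that fit (adjusted p = 0.054). All 5 calls between the lines were lost in each of the 6 fits that leave out 1 array, each with 1 residual degree of freedom. In those fits the differences themselves ran from 0.63 to 0.81 for COL4A5, 0.46 to 0.59 for COL12A1, 0.36 to 0.42 for COL18A1, 0.34 to 0.43 for COL6A1 and -0.70 to -0.52 for COL13A1.

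**Figure D4:**
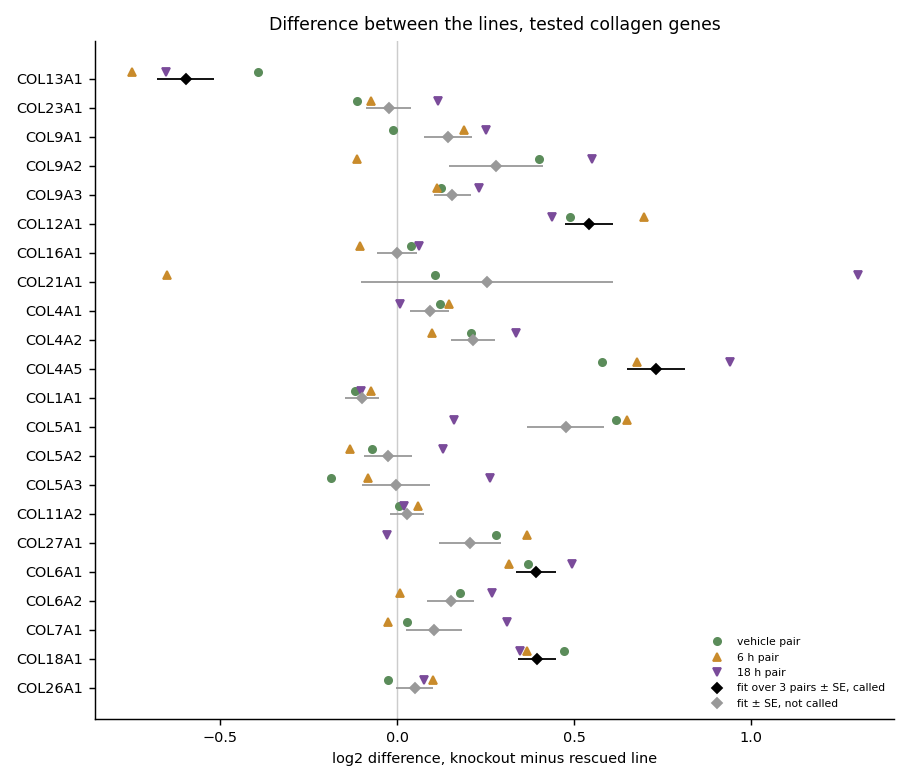
Log2 difference of the knockout minus the rescued line (horizontal axis) for the 22 tested collagen genes, with circles for the vehicle pair, upward triangles for the 6 h pair, downward triangles for the 18 h pair and diamonds with SE bars for the fit, black where called. COL4A5, COL12A1, COL18A1 and COL6A1 have all 3 pairs above 0 and COL13A1 all 3 below.

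No gene passed the test for a drug response that differs between the lines. A term for that difference shared by both times gave 0 calls of 13506 genes with limma (0%). Of all genes tested, 302 (2.24%) were below an unadjusted p of 0.05, and 0 of the 22 collagen genes. With so low a share, that 0 says nothing particular of the collagen genes. The widest spread between the lines was in COL21A1, whose change at 18 h was 4.70 in knockout cells and 3.51 in rescued cells, and at 6 h 0.15 and 0.91. COL5A1 changed by 0.56 in knockout cells and 1.02 in rescued cells at 18 h. A single time point has no residual spread for this difference, and these values carry no test.

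The 6 tested genes that no comparison called were COL1A1, COL5A3, COL6A2, COL9A1, COL11A2 and COL23A1. Their 18 h differences lay between -0.16 and 0.16 and their differences between the lines between -0.10 and 0.15. Of the 21 collagen genes below 5, 20 spanned less than 1 log2 unit over the 6 arrays. COL11A1, a chain that seeds cartilage fibrils, was the exception. It was at 3.48, 3.49 and 4.59 in knockout cells and 3.43, 3.81 and 5.25 in rescued cells. The 18 h arrays were the highest of each line, as they were for its probe set 204320_at, at 4.30 and 4.77 against 3.41 to 3.83 on the other arrays. The short chain collagens COL8A1, COL8A2 and COL10A1 all lay below 5.

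The genes that build, carry, trim and bind collagen also moved both ways at 18 h. Of 45 tested genes in 4 lists, 17 rose (37.8%, against 28.1% of all genes) and 11 fell (24.4%, against 23.3%), and after centring 14 rose and 17 fell. Among 19 genes of chain modification and folding, 6 rose (31.6%) and 5 fell (26.3%), shares near those of all genes, with a median of 0.04. P4HA1 and P4HA2, catalytic subunits of prolyl 4-hydroxylase, rose by 0.43 ± 0.07 (SE, adjusted p = 0.0043) and 0.67 ± 0.07 (adjusted p = 0.0013), while P4HA3, another such subunit, differed by -0.11 ± 0.06 and was not called. CRTAP, a partner in prolyl 3-hydroxylation, rose by 0.63 and FKBP7, a prolyl isomerase, by 0.70. P3H2, a prolyl 3-hydroxylase, was at 7.52, 7.05 and 6.05 in knockout cells and 7.65, 7.31 and 6.57 in rescued cells. It stepped down at each time and fell by 1.28 ± 0.10 at 18 h (adjusted p = 0.0007). COLGALT1, which adds galactose to hydroxylysine, fell by 0.71, TRAM2, a translocon protein needed for collagen synthesis, by 0.34, and P3H3, of the prolyl 3-hydroxylase family, by 0.31. SERPINH1, the collagen chaperone HSP47, differed by 0.04 ± 0.08 and was not called.

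Among 7 tested genes of procollagen secretion 4 rose (57.1%, against 28.1% of all genes) and 0 fell (against 23.3%) at 18 h, with a median of 0.25 beside 0.01 for all genes. They were KLHL12, the ubiquitin ligase adaptor that enlarges COPII carriers, by 0.75 ± 0.07 (SE), TRAPPC2, a transport complex subunit, by 0.47, MIA3, the cargo receptor that loads procollagen, by 0.33, and the coat protein gene SEC23A by 0.22. SEC24D, SAR1B and CREB3L1 were not called. Of 8 tested genes of propeptide removal and crosslinking 3 rose (37.5%, against 28.1%) and 2 fell (25%, against 23.3%), with a median of -0.17. The lysyl oxidase family split: LOXL4 rose by 1.36 ± 0.12 (adjusted p = 0.00081), whereas LOXL3 fell by 0.94 ± 0.08 and LOXL2 by 0.37. LOX and LOXL1 were below 5. PCOLCE, which speeds removal of the C-terminal propeptide, rose by 0.86 ± 0.07, and BMP1, the protease that removes it, by 0.35.

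Of 11 tested collagen receptors and uptake genes 4 rose (36.4%, against 28.1% of all genes) and 4 fell (36.4%, against 23.3%), with a median of -0.10. DDR2, a receptor tyrosine kinase for fibrillar collagen, was at 7.50, 8.08 and 8.73 in knockout cells and 7.77, 9.05 and 9.41 in rescued cells. It rose at each time in both lines, by 0.93 ± 0.16 (SE) at 6 h (adjusted p = 0.023) and 1.43 ± 0.16 at 18 h (adjusted p = 0.0017). MRC2, an endocytic collagen receptor, rose by 0.58 at 18 h, ANTXR1, an anthrax toxin receptor that binds matrix, by 0.46, and PEPD, the dipeptidase that recycles proline, by 0.27. ITGA1, the collagen-binding integrin subunit that prefers type IV, was at 7.60, 6.90 and 6.24 in knockout cells and 6.78, 6.48 and 5.46 in rescued cells. It fell at each time in both lines, by 1.33 ± 0.11 at 18 h (adjusted p = 0.00076). ITGA2, a second collagen-binding subunit, fell by 1.11 ± 0.13 at 6 h and 0.92 ± 0.13 at 18 h. LAIR1, an inhibitory collagen receptor, fell by 0.32 at 18 h, and ITGA10, an integrin subunit of cartilage cells, by 0.30. Their shared partner ITGB1 differed by -0.10 ± 0.06 at 18 h and was not called.

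At 6 h, 4 of the 45 genes rose, FKBP7, KLHL12, TRAPPC2 and DDR2 (8.89%, against 7.34% of all genes). Another 6 fell, FKBP14, TRAM2, LOXL3, ITGA1, ITGA2 and ANTXR2 (13.3%, against 8.82%). Between 6 h and 18 h, 14 rose (31.1%, against 19.0%) and 5 fell (11.1%, against 14.9%), and after centring 10 rose and 8 fell. Between the lines 1 was called in each direction (2.22%, against 1.44% and 1.06% of all genes). ITGA1 was higher in the knockout line by 0.67 ± 0.09 (SE, adjusted p = 0.042). PLOD2, a lysyl hydroxylase, was lower there (-0.38 ± 0.06, adjusted p = 0.046). COLGALT2 and DDR1 were not analysed here.

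**Figure D5:**
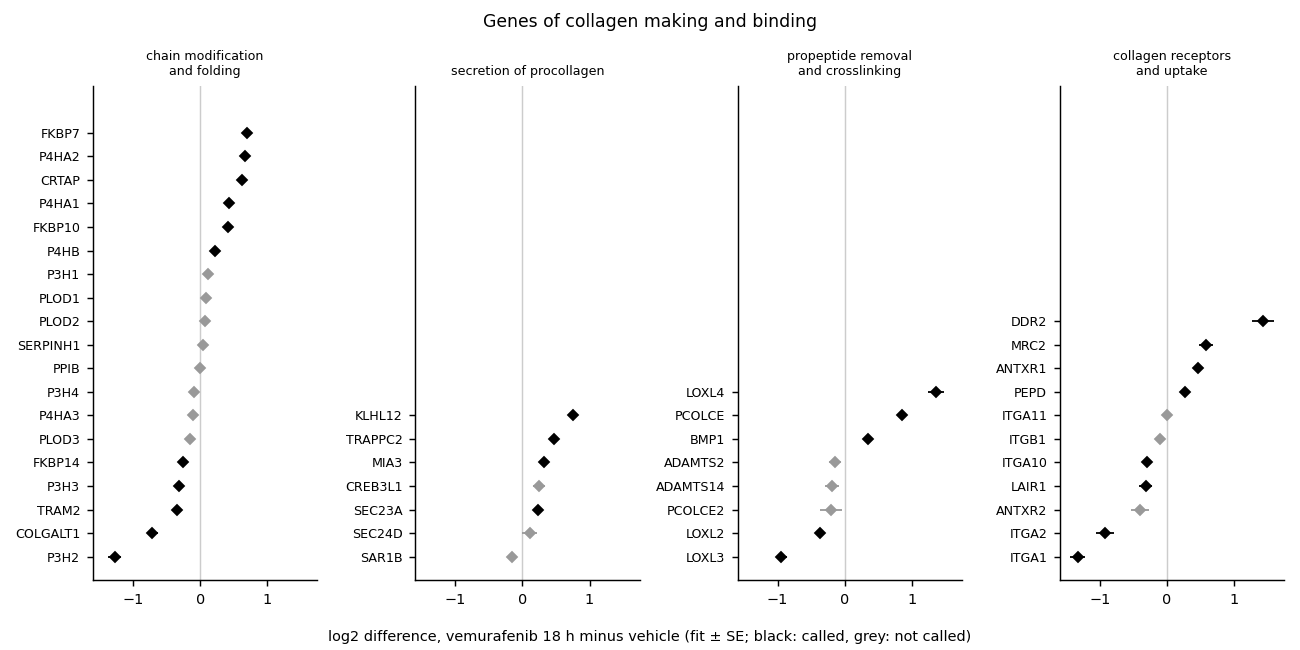
Log2 difference of vemurafenib 18 h minus vehicle (horizontal axes, fit over both lines with SE bars) for the tested genes of chain modification and folding, secretion, propeptide removal and crosslinking, and receptors and uptake, black where called. P3H2 and ITGA1 lie furthest below 0, and LOXL4 and DDR2 furthest above.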

How the data were processed

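Total RNA of A375 cells was labelled as biotinylated cRNA and hybridised to 6 Affymetrix U133 Plus 2.0 arrays, per the labels. The authors deposited linear intensities (3.01 to 18999.8), made with RMA and affy per the submitters' processing notes, in versions not given in the sources used here. Because RMA sets the arrays to a common distribution, a shift in total RNA would not show. Probes for control RNA (62 probe sets) were left out. Genes were named from the platform annotation through RefSeq's GRCh38.p14 table, in which 41037 of 41091 single-symbol probe sets matched. Levels of different probe sets were not compared with each other.

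Log2 values of 13506 genes with a mean of at least 5 were fitted with limma 3.58.1 in R 4.3.3 (lmFit, eBayes, line plus treatment, all 6 arrays, 2 residual degrees of freedom and 3.19 from the prior), with Benjamini-Hochberg adjustment and a threshold of 0.05. Values are log2 differences with standard errors from the fit. The code was tested on simulated data. Named genes were all called collagen genes, those called in none, and pathway genes by the size of their change at 18 h, up to 4 per list and direction; uncalled genes beside them were picked with their values known. The members and lists were chosen with earlier results of these data known. Alternatives changed the filter, probe set choice, offset, variance trend, centring, model and arrays used. Counts without genes that reach the limit through 1 treatment, and lower bounds of folds, were added after the data were seen.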

Additional observations from a re-analysis of the deposited data

How the results depend on the processing

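The labels give no replicate numbers, so replicates could not be paired. The line term of the fit pairs the arrays by line, and treatments are compared within each line. With 1 array per combination, the residual spread is the part of the differences that the lines do not share, not a spread between replicates. No called collagen gene changed direction in a setting run, but centring turned the majority of calls at 18 h from higher to lower, as given with those counts. Counts of calls moved as follows. Leaving out 1 array gave 1 to 6 collagen calls at 6 h (5 with all arrays), 10 to 13 at 18 h (12), 8 to 11 between 6 h and 18 h (11) and 0 between the lines (5), where 7 to 9 collagen genes were below an unadjusted p of 0.05; the pathway lists gave 1 to 10 (10), 17 to 26 (28), 9 to 18 (19) and 0 (2), the last with 7 to 12 unadjusted. Asking limma for a change beyond 0.5 log2 units left 1, 6, 4 and 0 collagen calls, the last with 1 unadjusted, and 0 (3 unadjusted), 6, 1 and 0 (0 unadjusted) pathway calls in the same order. Leaving the line or treatment term out gave 3 collagen and 3 pathway calls at 6 h, 10 pathway calls between 6 h and 18 h, and 0 of both between the lines (3 collagen and 1 pathway unadjusted). Without a filter on dim genes limma called 6 pathway genes at 6 h and 0 collagen and 0 pathway genes between the lines (11 and 13 unadjusted). Between the lines the pathway count was 1 with all probe sets averaged, 4 with centred arrays and 5 with an intensity trend. The difference in response gave 0 calls in each setting run and could not be fitted without an array. For the called collagen genes, 238 results under the other settings with all arrays kept their call and 50 lost it. A gene that was no longer tested in a setting is not among those that lost it. Single pathway genes were not followed in this count. Signals near 5 log2 units and the 2 residual degrees of freedom limit the precision.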
